A study of Mus musculus with 12 samples.

Results

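The 10 genes described here mark the epithelial and the mesenchymal state of a cell, or encode transcription factors that switch cells between these states: Epcam, Cdh1, Cdh2, Vim, Fn1, Snai1, Snai2, Zeb1, Zeb2 and Twist1. They were chosen by name, as probes whose accession in the array design maps to 1 of these symbols, which gave 14 probes of 41174 and 10 genes of 17178 named on the array. Messenger RNA was measured on 12 single-colour mouse arrays in a study of organ regeneration by lineage reprogramming of adult cells that depends on stroma. Each of the 4 groups has 3 arrays: adult cells from lung, adult cells from the mammary gland, and cells named reprogrammed lung or reprogrammed mammary, all labelled as epithelial. The adult donor organs came from female mice aged 10 weeks and were dissociated with trypsin and collagenase, and their epithelia were enriched by repeated washing and slow centrifugation, with no cell sort named. The labels give no strain and no reporter allele. For reprogrammed samples, they leave unsaid whether the organ in the name refers to the donor or to the regenerated tissue, and how the cells were separated from host tissue. No label ties an array to an animal, so the p-values measure the spread between these arrays, which may be technical.

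Epithelial-mesenchymal transition is the process by which cells that are bound into a sheet loosen their junctions and take on a migratory, matrix-producing state, as in embryonic tissue movements and wound repair. The transcription factors of the Snail, Zeb and Twist families drive it. Snail and Zeb proteins bind short E-box motifs with the core CACCTG and repress epithelial genes such as the adhesion genes, while Twist proteins are basic helix-loop-helix factors that bind the wider class CANNTG and also control mesoderm and fibroblast genes. In the mammary gland Snai2 is a factor of the basal cell layer, and in adult tissues Zeb1, Zeb2 and Vim are also expressed by endothelial cells, fibroblasts or leukocytes, so their level in a mixed sample can come from more than 1 cell type.

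The promoters of 3 members that the results turn on or that differ in this motif are shown, as the 250 bases before the annotated start in RefSeq (build GRCm38.p6, plus strand for all 3), with each CACCTG on either strand in capitals. Epcam lies at chr17:87635729-87635978, Snai1 at chr2:167537945-167538194 and Twist1 at chr12:33957421-33957670.
Epcam: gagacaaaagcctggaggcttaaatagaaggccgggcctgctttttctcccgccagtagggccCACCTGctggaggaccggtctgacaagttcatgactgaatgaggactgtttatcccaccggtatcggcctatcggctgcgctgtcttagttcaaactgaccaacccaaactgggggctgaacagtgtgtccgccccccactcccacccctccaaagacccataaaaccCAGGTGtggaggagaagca
Snai1: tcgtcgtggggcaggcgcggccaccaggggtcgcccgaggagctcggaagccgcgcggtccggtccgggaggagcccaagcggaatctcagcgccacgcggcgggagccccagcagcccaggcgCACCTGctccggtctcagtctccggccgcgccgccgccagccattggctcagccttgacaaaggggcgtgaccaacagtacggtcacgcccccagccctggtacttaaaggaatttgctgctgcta
Twist1: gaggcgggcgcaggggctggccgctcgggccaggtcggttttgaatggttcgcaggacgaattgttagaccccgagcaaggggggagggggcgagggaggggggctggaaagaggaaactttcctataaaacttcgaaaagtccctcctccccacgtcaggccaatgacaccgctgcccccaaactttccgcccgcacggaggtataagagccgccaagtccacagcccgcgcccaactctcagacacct
Epcam, the epithelial adhesion gene with the largest difference between the groups among the members that mark epithelium, has 2 such motifs, starting 187 and 19 bases before its start. Snai1, which encodes a factor that binds this motif, has 1, starting 126 bases before its own start. None lies in these 250 bases of Twist1, nor in those of Vim or of the 4 annotated starts of Zeb2. Over all 32851 windows of this length in the same table, 17.2% hold at least 1 CACCTG on either strand and 2.06% hold at least 2, while the wider class CANNTG, which includes CACCTG, is in 66.2%. These are matches of letters only. Of the 10 members, 5 had a promoter in the table, and no promoter is shown for Cdh1, Fn1, Snai2, Cdh2 or Zeb1.

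Levels are given as log2 of the scanner program's background-subtracted signal minus the 75th percentile of that array, so 0 is the level that 25% of an array's probes exceed. Levels of different genes are not set against each other because each probe has its own response. Of the 12 arrays, 2 stood apart in range: adult mammary replicate 4 had 89.1% of probes well above background and reprogrammed lung replicate 1 had 91.1%, against 71.8% to 77.5% for the rest. The signal range between the percentiles 10 and 90 was 7.11 and 6.10 log2 units, against 8.46 to 9.13. The file headers place the arrays on 5 slides, each with more than 1 group. The epithelial label was checked with 10 marker genes (keratins, claudins and others): all 10 were above background on 11 arrays and 9 were on 1 adult lung array. Their mean level was 0.45 to 1.03 in adult lung, 3.11 to 3.48 in adult mammary, 0.53, 2.89 and 2.90 on reprogrammed lung replicates 1, 3 and 4, and 3.11 to 3.39 in reprogrammed mammary. Markers of other cell types were present as well, and those of some types are given beside members. Macrophage and adipocyte markers are not set beside a member. In bulk samples such as these, fewer cells of a type and less RNA per cell cannot be told apart. A difference was called at an adjusted p under 0.05 in limma's test over all 24504 features, and 9 of the 10 members, all but Cdh2, passed the filter on low signal. Every tested marker of mammary luminal cells was called higher in reprogrammed than in adult lung, for example Prlr (5.40) and Cited1 (4.40). Every tested marker of lung alveolar type II cells was called lower, for example Sftpb (-6.40) and Slc34a2 (-6.94). None of these markers was called between reprogrammed lung and adult mammary, where only 0.0286% of all features were called. The uncalled differences there reached -2.11 for Cited1 and 2.08 for Sftpa1. The origin of the reprogrammed lung cells was not tested.

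The adhesion gene Epcam and the transcription factors Zeb1 and Twist1 set adult lung apart from each of the 3 other groups on every array. Compared with adult mammary, 5 of the 9 tested members were called (28.5% of all features were called, 12.5% higher and 15.9% lower): Zeb1 and Zeb2 were higher in adult lung, and Epcam, Cdh1 and Twist1 were lower. Compared with adult lung, 3 of 9 were called in reprogrammed lung (23.4% of all features, 14.1% higher and 9.31% lower): Epcam and Twist1 rose and Zeb1 fell. The same 3 genes were called, in the same direction, in reprogrammed mammary against adult lung (26.1% of all features, 14.9% higher and 11.2% lower), a comparison that shares the adult lung arrays with the previous one. With so large a share of all features called in these comparisons, and so few members, the counts say little about the members as a group, and the genes are described one by one. The median difference of the tested members was -0.25 between adult lung and adult mammary, against 0.00 over all features, and 0.06 between reprogrammed and adult lung, against 0.10.

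No member was called in the 3 comparisons among adult mammary, reprogrammed mammary and reprogrammed lung, in which hardly any feature was called: 0.00408% for reprogrammed mammary minus adult mammary, 0.00816% for reprogrammed lung minus reprogrammed mammary and 0.0286% for reprogrammed lung minus adult mammary. In limma's unadjusted test at 0.05, 0, 1 and 1 of the 9 members passed in these comparisons, both times Cdh1, against 10.0%, 9.59% and 11.8% of all features.

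**Figure D1:**
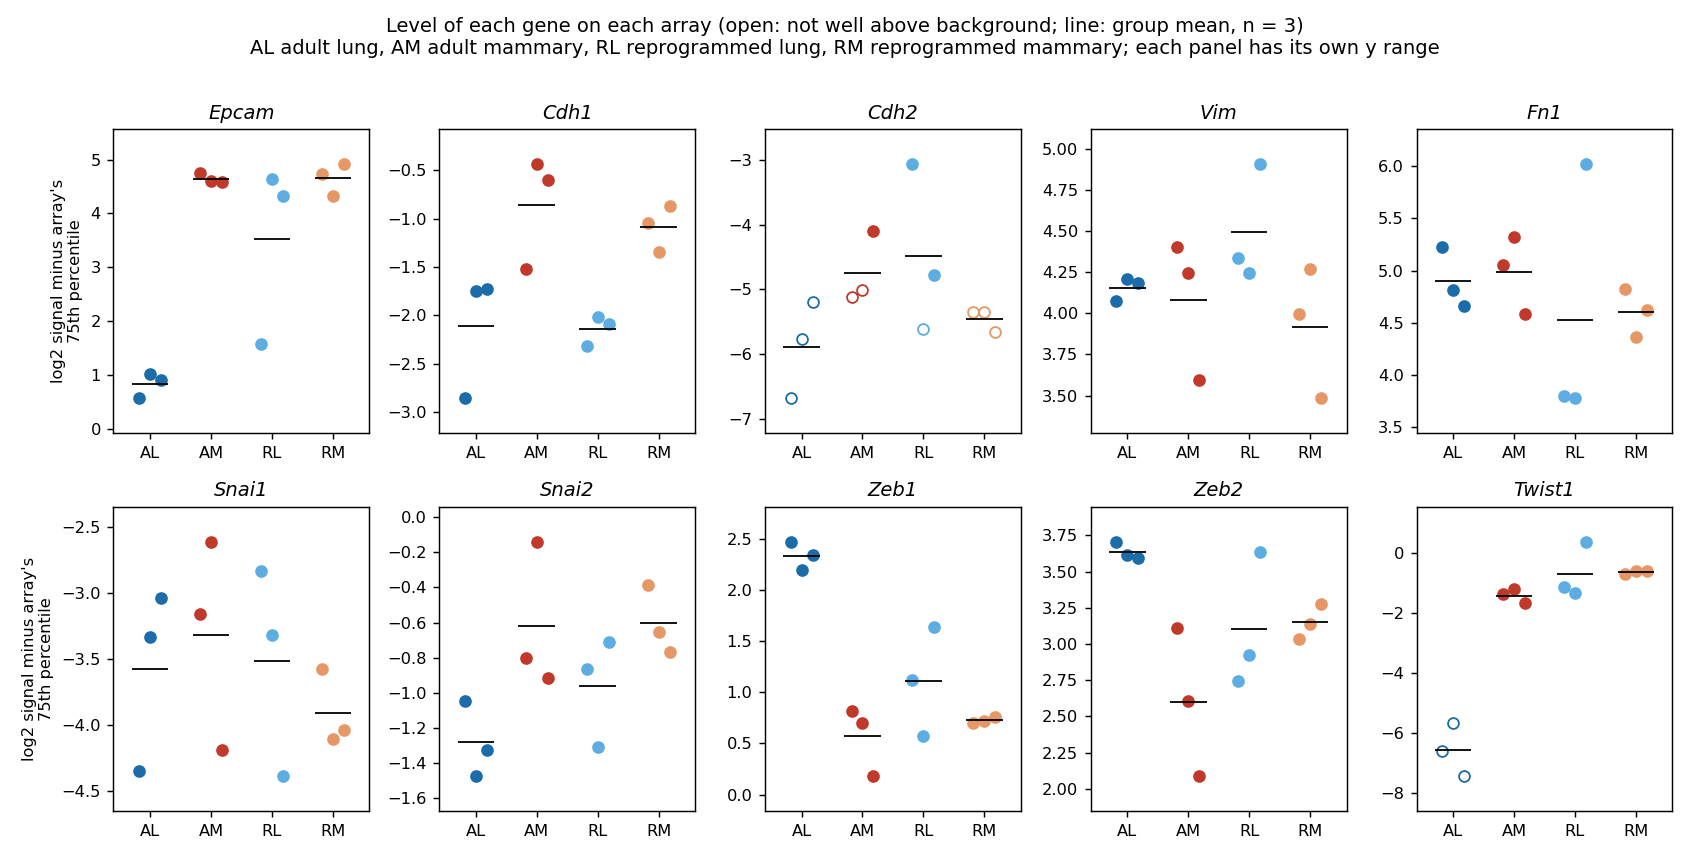
Log2 level of each of the 10 genes on each of the 12 arrays (y axis, log2 signal minus the array's 75th percentile; x axis, group; horizontal line, mean of 3 arrays; open point, not well above background). Adult lung lies apart from the other groups for Epcam, Zeb1 and Twist1. For Epcam, reprogrammed lung replicate 1 (1.58) lies between adult lung and the other reprogrammed lung arrays. Fn1 is spread from 3.78 to 6.02 within reprogrammed lung.

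Epcam encodes the epithelial cell adhesion molecule, a surface glycoprotein of simple epithelia. Its levels were 0.56, 1.02 and 0.91 on adult lung replicates 1 to 3, 4.76, 4.61 and 4.58 on adult mammary replicates 1, 2 and 4, 1.58, 4.65 and 4.33 on reprogrammed lung replicates 1, 3 and 4, and 4.74, 4.33 and 4.91 on reprogrammed mammary replicates 1 to 3. All adult lung arrays were below all others, and within reprogrammed lung replicate 1 lay between adult lung and the rest while replicates 3 and 4 lay in the range of the mammary groups. The difference was log2 -3.82 ± 0.63 (SE, n = 3 per group, adjusted p = 0.00154, limma) for adult lung minus adult mammary, a 14.1-fold lower level. It was 2.69 ± 0.63 (adjusted p = 0.0116), or 6.45-fold higher, for reprogrammed lung minus adult lung, and 3.66 without reprogrammed lung replicate 1. Within the 3 slides that hold an adult and a reprogrammed lung array, the difference was 4.08, 0.67 and 3.31, the lowest on the slide with replicate 1, and with the slide as a block it kept its call (adjusted p = 0.0294). The call was lost when only the 6 lung arrays were fitted (2.69, adjusted p = 0.0811). The call between the adult organs was lost with the slide as a block (-3.16, adjusted p = 0.0523), as was that of reprogrammed mammary minus adult lung (3.19, adjusted p = 0.0536), and the 1 slide that holds both gave -4.05.

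Markers of epithelium were measured beside Epcam. Of the 10 epithelial markers, 7 were lower and 0 higher in adult lung than in adult mammary, with a median of -2.27, and 4 were higher and 0 lower in reprogrammed than in adult lung, with a median of 1.41. Krt7, a keratin among them, stood at 0.05 and -0.81 in these comparisons, not called. On reprogrammed lung replicate 1 the mean of the epithelial markers (0.53) was within the adult lung range, whereas Epcam (1.58) was above its own adult lung range (0.56 to 1.02). On that array 7 B cell markers had a mean level of 3.22, above all other arrays (-3.99 to 0.74), and 8 T and NK cell markers stood at 0.59, above the other reprogrammed lung arrays (-3.44 and -2.35). The part of lymphoid RNA in that array's Epcam level was not tested. Reprogrammed lung differed from reprogrammed mammary in Epcam by -1.14 (95% interval -2.55 to 0.26, adjusted p = 0.604) and from adult mammary by -1.13 (-2.54 to 0.27, adjusted p = 0.495), intervals that leave room for differences in either direction. Reprogrammed and adult mammary differed by 0.01 (-1.39 to 1.42).

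Cdh1 encodes E-cadherin, the calcium-dependent adhesion protein of adherens junctions and a textbook target of Snail and Zeb repression. Its levels were -2.86, -1.75 and -1.73 in adult lung, -1.53, -0.44 and -0.60 in adult mammary, -2.32, -2.02 and -2.09 in reprogrammed lung and -1.05, -1.35 and -0.87 in reprogrammed mammary, in the order of replicates given above. Every array of the groups named lung was below every array of the groups named mammary. Adult lung minus adult mammary was log2 -1.26 ± 0.35 (adjusted p = 0.0222, limma), or 2.39-fold lower. This call was lost without adult lung replicate 1 (-0.88, adjusted p = 0.0801), without adult mammary replicate 2 (-1.05, 0.0877) or 4 (-1.13, 0.0718), with the slide as a block (-1.41, 0.136), with normexp background correction (-0.57, 0.178), when only the 6 adult arrays were fitted (-1.26, 0.0607) and without both arrays of narrow range (-1.13, 0.058). Reprogrammed and adult lung differed by -0.03 (95% interval -0.81 to 0.75, adjusted p = 0.964), and within the 3 shared slides by 0.84, -0.59 and -0.34. Reprogrammed mammary minus adult lung was 1.03 (adjusted p = 0.0549, limma), not called, and stayed so in 23 of 28 alternatives. Reprogrammed lung minus reprogrammed mammary was -1.06 (-1.84 to -0.28, unadjusted p = 0.0127, adjusted p = 0.407), and reprogrammed lung minus adult mammary -1.29 (-2.07 to -0.51, unadjusted p = 0.00409, adjusted p = 0.237), neither of which passed the limma test over all features although the groups did not overlap. The organ difference of the change, which is the change in lung minus the change in mammary, was 0.20 for Cdh1 (adjusted p = 0.841) and 2.68 for Epcam (95% interval 0.69 to 4.66, adjusted p = 0.0791). The latter was called without reprogrammed lung replicate 1 (3.65, adjusted p = 0.000122).

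Cdh2 encodes N-cadherin, the cadherin of neural and many mesenchymal cells, whose gain beside a loss of E-cadherin is called the cadherin switch. It was well above background on 1 adult mammary array (replicate 4, at -4.10) and 2 reprogrammed lung arrays (replicate 1 at -3.07 and replicate 4 at -4.78), and on no array of adult lung or reprogrammed mammary. The other 9 arrays stood between -6.68 and -5.01. As the gene was above background on all arrays of no group, it was not tested and no fold is given. Of the 3 arrays that passed, 2 are those with the widest share of probes above background.

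The mesenchymal markers among the members did not differ by a called amount in any comparison. Vim encodes vimentin, the intermediate filament of mesenchymal cells, endothelium and leukocytes. It stood at 4.08, 4.21 and 4.18 in adult lung, 4.40, 4.24 and 3.59 in adult mammary, 4.33, 4.25 and 4.90 in reprogrammed lung and 4.00, 4.27 and 3.48 in reprogrammed mammary. The 3 reprogrammed lung arrays were above the 3 adult lung arrays, by a mean of 0.34 (95% interval -0.27 to 0.95, adjusted p = 0.432, limma), and all other pairs of groups overlapped. For adult lung minus adult mammary the interval was -0.54 to 0.69 around 0.08, so a difference larger than 0.69 log2 units in either direction lies outside it.

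Fn1 encodes fibronectin, a glycoprotein of the extracellular matrix. Its levels were 5.23, 4.81 and 4.66 in adult lung, 5.05, 5.33 and 4.58 in adult mammary, 3.80, 3.78 and 6.02 in reprogrammed lung and 4.82, 4.36 and 4.62 in reprogrammed mammary. Reprogrammed lung held both the lowest values and the highest value of the 12 arrays. Reprogrammed minus adult lung was -0.37 ± 0.51 (adjusted p = 0.67, limma) and not called, whereas without reprogrammed lung replicate 4 it was -1.11 and called (adjusted p = 0.0133). The within-slide differences were -1.45, -0.86 and 1.21, the last on the slide with replicate 4. The other Fn1 probes showed the same spread, for example 2.16, 2.78 and 5.01 in reprogrammed lung on 1 of them, and gave -0.34 and -0.38 for the same difference, not called. On reprogrammed lung replicate 4 the mean of 10 fibroblast markers was 4.60, above the other 11 arrays (1.42 to 3.72), against 2.22 and 2.16 on replicates 1 and 3 of that group. All 10 of these markers, collagens and other stromal genes, were above background on every array of all 4 groups. Their part in the Fn1 level was not tested.

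The 3 genes whose profile over the 12 arrays lay closest to that of Fn1 were Lamb1, Loxl1 and Angptl2, with a root-mean-square difference of 0.25, 0.27 and 0.28 log2 units after centring each gene on its mean. For comparison, the standard deviation of Fn1 itself over the arrays was 0.63. Lamb1 encodes a laminin chain of basement membranes and Loxl1 an enzyme that cross-links elastin and collagen. For Epcam, whose standard deviation was 1.79, the closest of 12908 named genes were Trps1, a zinc finger transcription factor (0.25), Krt18, a keratin of simple epithelia (0.30), and Sertad4 (0.33). Vim had Kdm7a (0.20), Slc11a2 (0.22) and Apaf1 (0.23) closest, against a standard deviation of 0.37, and Cdh1 had Tceal3, Syce2 and Tesc (0.35 to 0.37 against 0.72), so these profiles were less closely matched relative to their own spread.

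**Figure D2:**
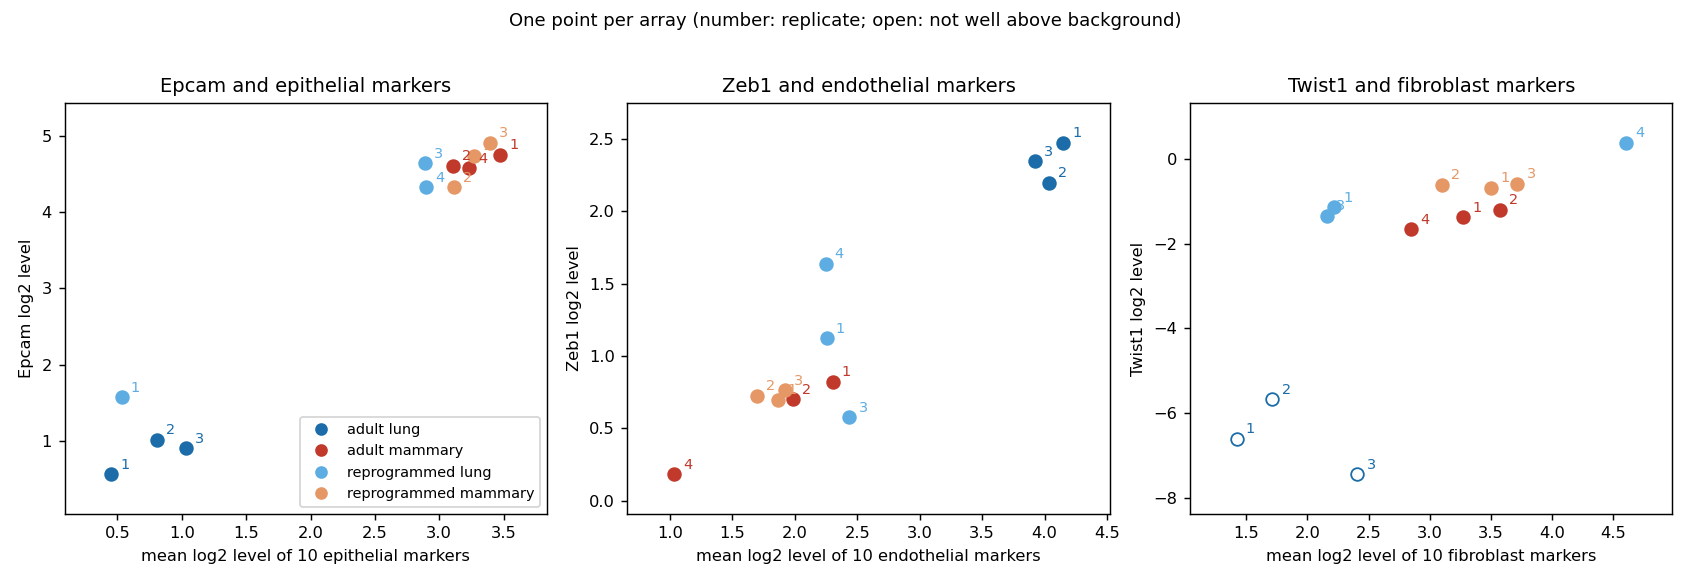
Level of Epcam against the mean of 10 epithelial markers, of Zeb1 against 10 endothelial markers and of Twist1 against 10 fibroblast markers (log2 units on both axes, 1 point per array, coloured by group, numbered by replicate; open points are not well above background). Epcam is low where the epithelial markers are low, and Zeb1 is highest on the 3 adult lung arrays, where endothelial markers are highest (3.92 to 4.15). Twist1 is dim on the 3 adult lung arrays. The fibroblast mean was 2.41 on adult lung replicate 3 and 2.22 and 2.16 on reprogrammed lung replicates 1 and 3. It averages markers that were called in both directions between these groups, and the part of fibroblasts in the Twist1 level was not tested.

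Of the transcription factors, Snai1 and Snai2 were called in no comparison. Snai1 encodes Snail, a short-lived zinc finger repressor. Its levels were -4.35, -3.33 and -3.04 in adult lung, -3.16, -2.61 and -4.19 in adult mammary, -2.84, -3.32 and -4.39 in reprogrammed lung and -3.58, -4.11 and -4.04 in reprogrammed mammary. All pairs of groups overlapped, and the widest difference, reprogrammed minus adult mammary, was -0.59 with a 95% interval of -1.70 to 0.52 (adjusted p = 0.746, limma). The probe was above background on all 12 arrays, and a difference within such an interval was not detectable with this spread.

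Snai2 encodes Slug, the related repressor of basal mammary cells. It stood at -1.05, -1.47 and -1.32 in adult lung, -0.80, -0.14 and -0.91 in adult mammary, -0.87, -1.31 and -0.71 in reprogrammed lung and -0.39, -0.66 and -0.77 in reprogrammed mammary. All adult lung arrays were below all arrays of the 2 mammary groups, while reprogrammed lung overlapped with each other group. The difference was -0.66 ± 0.25 (adjusted p = 0.0692, limma) for adult lung minus adult mammary and 0.68 ± 0.25 (adjusted p = 0.068) for reprogrammed mammary minus adult lung, both just outside the threshold. The first stayed uncalled in 26 of 28 alternatives and was called, for example, without the 2 arrays of narrow range (-0.81, adjusted p = 0.0408). The second stayed uncalled in 25 of 28 and was called, for example, without adult mammary replicate 2 (0.68, adjusted p = 0.041). The lowest adjusted p over the alternatives was 0.0170 for the first and 0.00279 for the second (limma). Of 6 basal and myoepithelial markers, 4 were lower and 0 higher in adult lung than in adult mammary, and their mean level was -1.65 to 0.39 in adult lung, 1.81 to 2.45 in adult mammary, 0.49 to 1.94 in reprogrammed lung and 1.08 to 2.02 in reprogrammed mammary. Their part in the Snai2 values was not tested.

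Zeb1 encodes a zinc finger and homeodomain repressor of epithelial genes. Its levels were 2.47, 2.20 and 2.34 in adult lung, 0.82, 0.70 and 0.18 in adult mammary, 1.12, 0.58 and 1.64 in reprogrammed lung and 0.70, 0.72 and 0.76 in reprogrammed mammary. The 3 adult lung arrays were above all 9 others, and reprogrammed lung overlapped with both mammary groups. Adult lung exceeded adult mammary by 1.77 ± 0.26 (adjusted p = 0.000813, limma), or 3.41-fold, and Zeb1 fell in reprogrammed lung by 1.23 ± 0.26 (adjusted p = 0.00709), or 2.34-fold. Reprogrammed mammary minus adult lung was -1.61 ± 0.26 (adjusted p = 0.00138). Both lung comparisons kept their call without any 1 array, with a range of 1.58 to 1.90 between the adult organs and -1.49 to -0.96 between reprogrammed and adult lung. Within the 3 slides shared by reprogrammed and adult lung the difference was -1.90, -1.22 and -0.56, and with the slide as a block the calls held (adjusted p = 0.0475 for the adult organs and 0.0409 for the lung groups), except for reprogrammed mammary minus adult lung (-1.58, adjusted p = 0.0566). Zeb1 was not called when only the 6 lung arrays were fitted (-1.23, adjusted p = 0.0509).

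The organ difference of the change was -1.39 ± 0.37 for Zeb1 (adjusted p = 0.0353, limma, with 12.8% of all features called, 7.41% higher and 5.39% lower), that is, Zeb1 fell further from adult to reprogrammed lung than it moved from adult to reprogrammed mammary (0.16, 95% interval -0.42 to 0.74). This call was not firm: it was lost without any 1 of 8 of the 12 arrays, with the slide as a block (-1.30, adjusted p = 0.151), with normexp correction (-1.07, 0.163), with median centring (-1.54, 0.0569) and with no filter on low signal (-1.39, 0.0608). Endothelial genes moved the same way as Zeb1. Of 10 endothelial markers, 8 were higher and 0 lower in adult lung than in adult mammary (median 2.69), and 8 were lower and 0 higher in reprogrammed than in adult lung (median -2.12). All 10 were above background on every array, and their mean was 3.92 to 4.15 in adult lung, 1.03 to 2.30 in adult mammary, 2.25 to 2.44 in reprogrammed lung and 1.69 to 1.92 in reprogrammed mammary. Their part in the Zeb1 result was not tested. Closest to Zeb1 in profile were Heg1 (0.15 log2 units, against a standard deviation of Zeb1 of 0.77), a receptor of endothelial junctions and the heart, Fam126a (0.20) and Lats2, a kinase of the Hippo pathway (0.21).

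Zeb2 encodes the second factor of this family. On the probe that stands for the gene its levels were 3.70, 3.62 and 3.59 in adult lung, 3.11, 2.61 and 2.09 in adult mammary, 2.74, 2.92 and 3.63 in reprogrammed lung and 3.04, 3.14 and 3.28 in reprogrammed mammary. Adult lung was above both mammary groups on all arrays, and reprogrammed lung replicate 4 reached its level. The adult organs differed by 1.03 ± 0.28 (adjusted p = 0.02, limma), or 2.05-fold. Leaving out any single adult lung array, or replicate 2 or 4 of adult mammary, ended the call (0.78 to 1.06, adjusted p = 0.0506 to 0.0692), as did the slide as a block (1.101, 0.13), normexp correction (0.83, 0.0654) and median centring (1.05, 0.0643). Of the other 2 probes, 1 was called as well (1.096, adjusted p = 0.00831) and 1 was not (0.46, adjusted p = 0.428). Reprogrammed lung differed from adult lung by -0.54 (95% interval -1.16 to 0.09, adjusted p = 0.21) and reprogrammed mammary from adult mammary by 0.55 (-0.08 to 1.18, adjusted p = 0.554). Zeb2 had Arhgap6 (0.13), P4htm (0.16) and Clic4 (0.17) closest in profile, against its own standard deviation of 0.49.

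Twist1 encodes a basic helix-loop-helix factor of mesoderm, neural crest and fibroblasts. On the adult lung arrays its processed signal was 3.21, 5.79 and 1.85, not well above background on any of them, against 133 to 266 in adult mammary, 140 to 662 in reprogrammed lung and 268 to 307 in reprogrammed mammary. As log2 levels these were -6.60, -5.67 and -7.44 in adult lung, -1.38, -1.20 and -1.66 in adult mammary, -1.13, -1.34 and 0.38 in reprogrammed lung and -0.68, -0.61 and -0.58 in reprogrammed mammary. The adult lung arrays were far below all others, and reprogrammed lung replicate 4 was the highest.

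Since adult lung gives only a bound, the folds for Twist1 were computed against the lowest level marked well above background on each adult lung array. Twist1 was at least 11.4-fold lower in adult lung than in adult mammary (fitted log2 -5.16 ± 0.49, adjusted p = 6.64e-05, limma), rose at least 18.8-fold in reprogrammed lung (5.87 ± 0.49, adjusted p = 3.52e-05), and was at least 19.8-fold higher in reprogrammed mammary than in adult lung (5.94 ± 0.49, adjusted p = 2.61e-05). Among the other 3 groups it was not called: reprogrammed minus adult mammary was 0.79 (95% interval -0.29 to 1.87, adjusted p = 0.63), with all 3 reprogrammed mammary arrays above all adult mammary arrays, and reprogrammed lung minus reprogrammed mammary was -0.08 (-1.16 to 1.00). The organ difference of the change was 5.08 ± 0.69 (adjusted p = 0.00165). The fitted log2 values, the organ difference among them, rest on adult lung signals that were not above background, so their sizes are not measured differences.

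The size of the Twist1 difference, though not its direction, depended on how background was treated. With normexp correction and an offset of 50, which pulls dim probes together by construction, it was -0.96 between the adult organs (adjusted p = 0.142) and 1.51 between reprogrammed and adult lung (0.0527), neither called, and 1.55 between reprogrammed mammary and adult lung, called (0.0347). In the authors' deposited log2 values, which follow the order of the raw median signal, it was -2.47 (adjusted p = 0.000415) and 2.95 (adjusted p = 0.00015), both called. The mean of 10 fibroblast markers was 1.42, 1.71 and 2.41 in adult lung, 2.85 to 3.57 in adult mammary, 2.16 to 4.60 in reprogrammed lung and 3.10 to 3.72 in reprogrammed mammary. All 10 were above background on the adult lung arrays on which Twist1 was not, and 1 was higher and 3 were lower in adult lung than in adult mammary (median -1.42). Of the smooth muscle and pericyte markers, Rgs5, Myh11 and Lmod1 were called lower in adult lung than in adult mammary (-3.55, -1.70 and -1.35). They were called higher in reprogrammed than in adult lung (3.12, 1.77 and 1.92). Des and Mcam went the other way (1.49 and 1.07, then -1.09 and -0.94), all called. Cspg4 was called in neither comparison and Notch3 only in the second (0.77). The part of these cell types in the Twist1 result was not tested. The closest profiles, Chp2, Pla1a and Ackr1, were 0.78 to 0.84 log2 units away, against a standard deviation of 2.64 for Twist1. These distances and the standard deviation include the adult lung signals that were not above background, so their sizes are not measured either.

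**Figure D3:**
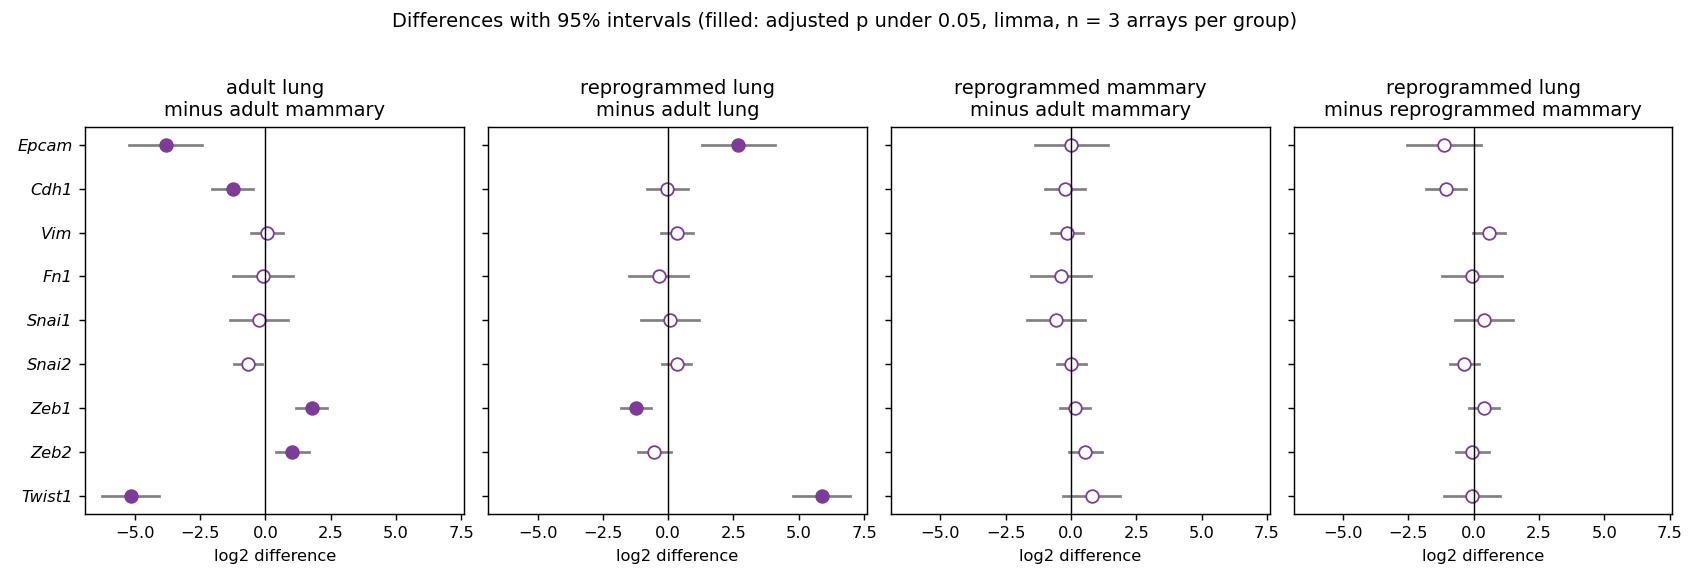
Log2 difference of each of the 9 tested genes with its 95% interval in 4 comparisons (x axis, log2 units; y axis, gene; filled point, adjusted p under 0.05 in limma; n = 3 arrays per group). Of these 4 comparisons only those with adult lung have filled points, with Epcam and Twist1 to 1 side and Zeb1 to the other, and the open point of Cdh1 lies at -1.06 between the reprogrammed groups.

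In the order of the group means of the tested members, adult lung was at 1 end for Epcam, Zeb1, Zeb2 and Twist1. The same held for Snai2, which was called in no comparison (-1.28 in adult lung, -0.96 in reprogrammed lung, -0.62 in adult mammary and -0.60 in reprogrammed mammary). For Epcam the means were 0.83 ± 0.23 (SD, n = 3) in adult lung, 3.52 ± 1.69 in reprogrammed lung, 4.65 ± 0.09 in adult mammary and 4.66 ± 0.30 in reprogrammed mammary, and of the steps between neighbours only that from adult lung to reprogrammed lung was called. For Zeb1 they were 0.57 ± 0.34 in adult mammary, 0.73 ± 0.03 in reprogrammed mammary, 1.11 ± 0.53 in reprogrammed lung and 2.34 ± 0.14 in adult lung, again with only the step to adult lung called. For Cdh1 the lowest were reprogrammed lung at -2.14 ± 0.16 and adult lung at -2.11 ± 0.64, followed by reprogrammed mammary at -1.09 ± 0.24 and adult mammary at -0.86 ± 0.59, with no called difference between neighbours. For Twist1 the 3 measured groups stood at -1.41 ± 0.24 in adult mammary, -0.70 ± 0.94 in reprogrammed lung and -0.62 ± 0.05 in reprogrammed mammary, with no called difference among them.

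The genes that surround these members in the pathway were counted from 6 lists. The lists were written with earlier results of these data known, so the counts describe the lists and are not an independent test. Each count stands against the share of all features called, which was 12.5% higher and 15.9% lower in adult lung than in adult mammary, and 14.1% higher and 9.31% lower in reprogrammed than in adult lung. Among 30 tested genes of epithelial junctions and polarity, 11 were lower and 1 higher in adult lung than in adult mammary (median -0.63), and 6 were higher and 5 lower in reprogrammed than in adult lung (median 0.35). The largest were Cldn4, a tight junction claudin, at -5.14 and 3.38, Dsg2, a desmosomal cadherin, at -4.004 and 4.14 (its other probes -5.20 to -4.70 and 4.27 to 5.11), and Cdh3, P-cadherin, at -3.16 and 2.49. Of 18 epithelial state regulators and surface proteases, 11 were lower and 1 higher in adult lung (median -1.71), and 6 rose and 1 fell in reprogrammed lung (median 0.73). Grhl1, a grainyhead factor of epithelia, stood at -4.002 and 2.90, Ehf, an epithelial Ets factor, at -2.74 between the adult organs, and Mal2, a membrane trafficking protein, went the other way at 2.65 and -3.29. Grhl2 rose by 2.04 in reprogrammed lung, though its other probes gave 0.80 and 0.67 and were not called.

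Mesenchymal effector genes are those of matrix, cytoskeleton and the fibroblast surface. Of 30 tested, 10 were lower and 4 higher in adult lung than in adult mammary (median -0.99), and 10 rose and 3 fell in reprogrammed lung (median 0.78). Lum, a proteoglycan that binds collagen, stood at -4.12 and 3.89, Dcn, decorin of connective tissue, at -3.95 and 3.64, and Fap, a surface protease of activated fibroblasts, at -3.69 and 3.72. In reprogrammed against adult lung, 3 fibroblast markers were higher (Lum, Dcn and Thy1) and 1 lower (Pdgfra), with a median of 1.07. All of these called markers are also genes of the mesenchymal effector list, so they are not a separate readout. The part of fibroblasts in these counts was not tested.

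Of 18 other transcription factors linked to the transition, 5 were lower and 4 higher in adult lung than in adult mammary (median 0.03), and 6 rose and 4 fell in reprogrammed lung (median 0.24). Sox9, a factor of progenitor cells and cartilage, was the widest at -6.91 and 5.98 (its other probes -6.94 and -4.53, and 5.996 and 3.69), followed by Foxc1, a forkhead factor of mesenchyme, at -3.31 and 3.31. Gsc, a homeodomain factor, was at least 1.42-fold lower in adult lung, and Tbx3, a T-box factor of mammary and lung development, fell by 3.01 in reprogrammed lung. Among 23 inducing ligands, receptors and transducers, 9 were lower and 5 higher in adult lung (median -0.47), and 8 rose and 6 fell in reprogrammed lung (median 0.14). Il6, a cytokine, stood at -2.99 and 3.76, Wnt5a, a Wnt ligand, at -2.51 and 2.14, and of the bone morphogenetic proteins Bmp4 stood at 1.83 and -1.04 and Bmp2 at -1.50 and 2.46, all called. Of 13 cofactors and turnover factors of the Snail and Zeb proteins, 3 were lower and 1 higher in adult lung (median -0.07), and 1 fell in reprogrammed lung (median -0.23), so the count between the adult organs was near the 28.5% of all features called and that in reprogrammed lung was below the 23.4%. Lats2 was at 1.41 and -1.21, Ezh2, a histone methyltransferase, at -1.23, and Kdm1a, a histone demethylase, at -0.83 between the adult organs. No gene of the 6 lists was called for reprogrammed minus adult mammary in limma. In its unadjusted test at 0.05, 1, 1, 3, 2, 7 and 2 genes of the lists passed, in the order given, against 10.0% of all features.

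**Figure D4:**
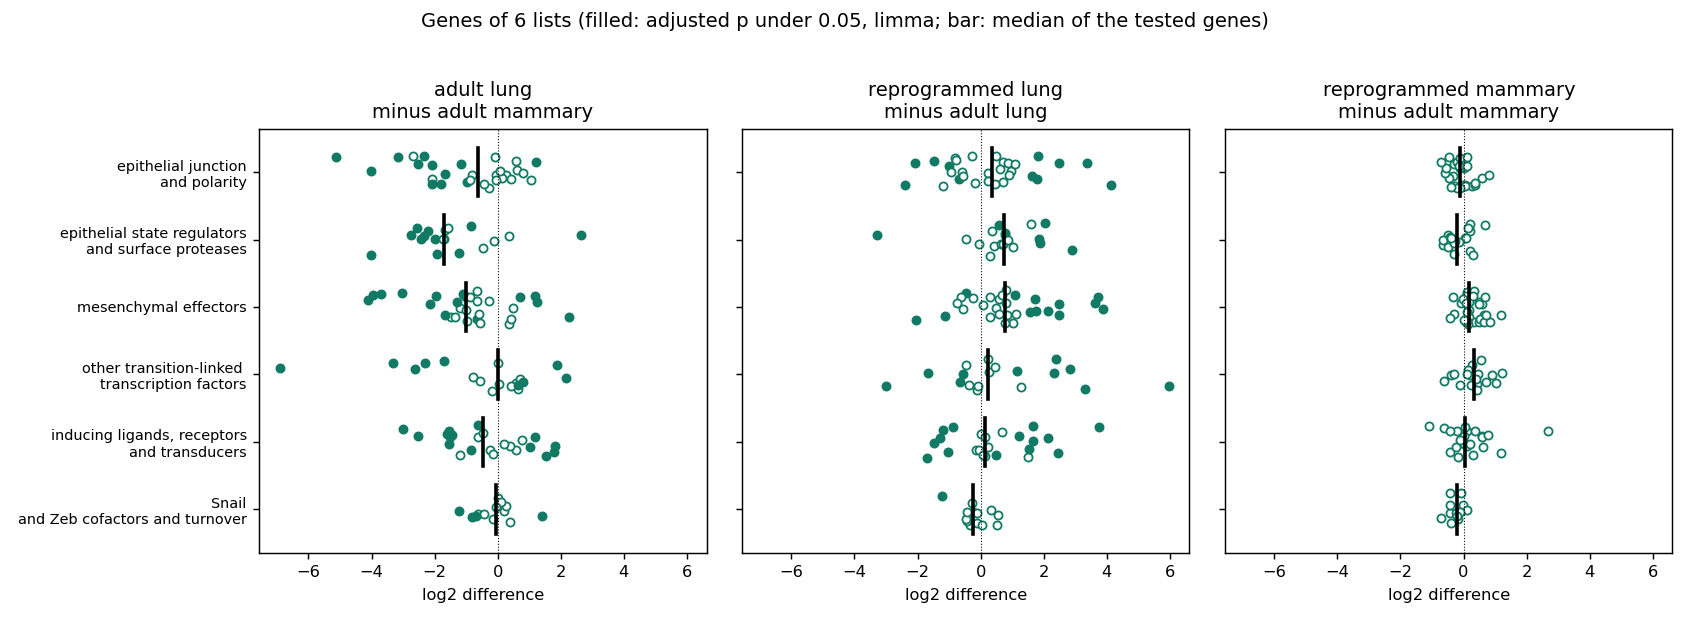
Log2 difference of every tested gene of the 6 lists (y axis, list; x axis, log2 units; filled, adjusted p under 0.05 in limma; black bar, median of the list) in 3 comparisons. Most filled points of the epithelial lists and of the mesenchymal effectors lie below 0 for adult lung minus adult mammary (medians -0.63, -1.71 and -0.99), and no point is filled for reprogrammed minus adult mammary.

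Single arrays moved these counts. The share of all features called can move with them and is not given for these fits, so the shifts are not read as results about these genes. Without reprogrammed lung replicate 1, 11 junction genes rose and 6 fell in reprogrammed lung, and 12 epithelial state genes rose and 1 fell. The count of epithelial state genes in that comparison was 3 without adult lung replicate 2 or without reprogrammed lung replicate 3 and 4 without adult lung replicate 1, against 7 with all arrays. For mesenchymal effectors, 6, 7 and 8 genes, all of which rose, were called without adult lung replicates 1, 2 and 3, and 8 without reprogrammed lung replicate 3, against 13. For the inducing genes 8 were called without adult lung replicate 2 or 3, against 14, and for the other transcription factors 6, against 10. Between the adult organs, 18 junction genes were called without reprogrammed lung replicate 1 (12 with it), 21 mesenchymal effectors without reprogrammed lung replicate 4 and 9 without adult lung replicate 2 (14 with all arrays), and 2 cofactors instead of 4 without replicate 2 or 3 of adult lung or replicate 2 of adult mammary. In reprogrammed against adult lung, 2 cofactors instead of 1 were called without any 1 of the 3 reprogrammed lung arrays or without adult mammary replicate 1. Reprogrammed arrays enter the comparison of the adult organs through the shared estimate of the spread and through the filter on low signal, which sets the number of features tested (24515 without reprogrammed lung replicate 1 and 25002 without replicate 4).

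**Figure D5:**
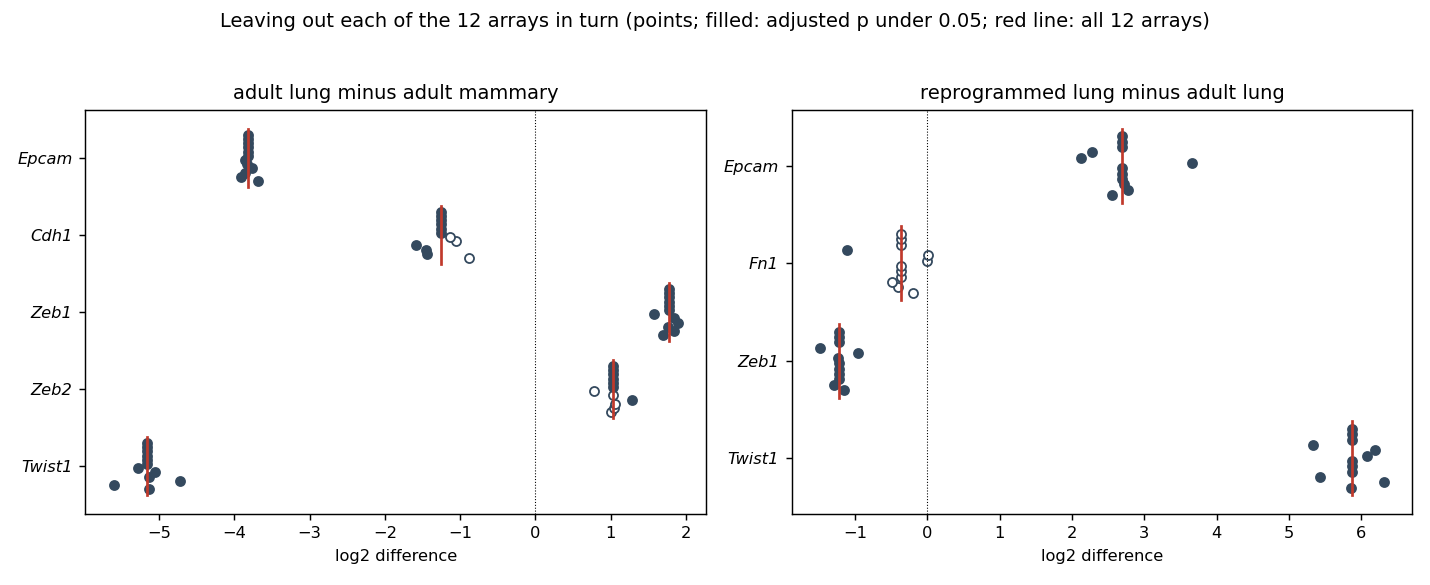
Log2 difference of the called genes, and of Fn1, when each of the 12 arrays is left out in turn (points; filled, adjusted p under 0.05 in limma; red line, all 12 arrays; x axis, log2 units). The Epcam difference between reprogrammed and adult lung ran from 2.12 to 3.66, Fn1 was called once, without reprogrammed lung replicate 4, and the calls for Cdh1 and Zeb2 between the adult organs were lost in several of the omissions.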

How the data were processed

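Messenger RNA was amplified, labelled with Cy3 and hybridised to Agilent whole mouse genome arrays of design 014868, per the labels and the file headers. The deposited scanner files hold intensity values per spot from Agilent Feature Extraction 10.5.1.1, per the file headers (10.1 in the submitters' processing notes): the processed signal is background-subtracted and not scaled between arrays. The authors' deposited value table holds log2 values with medians of 6.78 to 6.79 on every array. Across probes of an array it follows the order of the raw median signal, the sources used here do not give its method, and it served as an alternative.

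Spots of a probe were averaged on the 12 arrays, leaving out spots marked as outliers, and log2 of the signal minus the array's 75th percentile was taken. That percentile lay at a signal of 293.8 to 608.5, against negative control medians of 2.00 to 4.21. Probes were named by accession through RefSeq (17178 symbols), and the probe with the highest mean stood for a gene. Features well above background on all 3 arrays of at least 1 group were tested: 24504, of which 308 lacked a value on some array. limma 3.58.1 in R 4.3.3 fitted 4 group means over 12 arrays (8 residual and 2.37 prior degrees of freedom), with two-sided p adjusted by Benjamini-Hochberg at 0.05 within each comparison. The number of arrays limits the precision. The pipeline was tested on simulated data.

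All 10 members are named. From each list, the 3 called genes with the largest differences per comparison are named. The 3 named genes closest in profile are given for Epcam, Cdh1, Vim, Fn1, Zeb1, Zeb2 and Twist1, and not for Snai1 and Snai2. Dsp, Cgn, Grhl3, Spint2, Lox, Hdac1, Cd68 and Kit matched no probe by symbol. The members and lists were chosen with earlier results of these data known. Same-numbered arrays were not taken as pairs, since their deviations correlated at -0.53 to 0.33. Alternatives changed background correction, scaling, filter, probe choice, slide, replicate number, array weights, samples fitted and each array in turn. The normexp alternative used the median spot signal.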

Additional observations from a re-analysis of the deposited data

Results flagged for a closer look

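For 2 genes the change from adult to reprogrammed cells differed between the organs in limma's interaction test. Twist1 differed by log2 5.08 (adjusted p = 0.00165, n = 3 arrays per group), a fitted value that rests on adult lung arrays not above background: it was at least 18.8-fold higher in reprogrammed than in adult lung and 0.79 (log2) higher in reprogrammed than in adult mammary. Within each organ, all 3 reprogrammed arrays were above all 3 adult arrays. With normexp background correction the value was 0.92 (adjusted p = 0.503). Zeb1 differed by -1.39 (adjusted p = 0.0353). It was 1.23 lower in reprogrammed than in adult lung, where all 3 reprogrammed arrays were below all 3 adult arrays. In mammary it stood 0.16 higher, and the groups overlapped. The Zeb1 call was not firm: it held in 14 of 28 alternatives, with an adjusted p of up to 0.163 in limma.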

How the results depend on the processing

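Over 1757 differences of single members under the alternatives, 1698 kept their side of the threshold, 38 lost a call, 21 gained one and no called difference changed sign. Of 1376 differences called in neither fit, 89 changed sign. The share of all features called also moves with these settings, and some of these shifts are given in the next paragraph. The counts of members called are therefore not read as results about the members. The number of members called between the adult organs was 5, and 2 with normexp background correction or the slide as a fixed block, and 3 to 5 when single arrays were left out. For reprogrammed minus adult lung it was 3, and 1 when only these groups were fitted. For reprogrammed mammary minus adult lung it was 3, and 6 with only these groups or with array weights, and 1 with a slide block. For the organ difference of the change it was 2, and 0 with normexp (limma, with 2 members at an unadjusted p under 0.05), 1 with median centring, with features above background on all arrays, with no filter, with a fixed block for slide and with the replicate block, 4 with the authors' values or array weights, and 1 to 3 when single arrays were left out.

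With the replicate number as a block, the calls for Zeb2 between the adult organs (1.05, adjusted p = 0.0838, limma) and for Zeb1 in the organ difference (-1.52, adjusted p = 0.116) were lost and no other member's call changed. The deviations of same-numbered arrays did not all agree, so the arrays were not taken as pairs. Features called moved by over 1.5 times in these cases: with the slide as a fixed block from 6978 to 2702 between the adult organs, 6394 to 2437 for reprogrammed mammary minus adult lung and 3137 to 1167 for the organ difference, and with the replicate block from 5727 to 3728 for reprogrammed minus adult lung and to 1136 for the organ difference. Normexp left 2830 and 1144 in these last comparisons and moved the median of all features to 0.34 between the adult organs and -0.20 between the lung groups. Fitting only the groups compared gave 3122 for the lung groups and 10765 for reprogrammed mammary minus adult lung, and array weights gave 12494 for the latter and 5873 for the organ difference. Signal over background limits what can be said of Twist1 in adult lung and of Cdh2. The cause of these changes was not tested.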
